A study of Mus musculus with 96 samples.

Results

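The autophagy and lysosome genes described here are 36 named genes, of 54150 rows in the deposited gene table, which were taken by symbol from a fixed list, drawn up with earlier results of these data known. They comprise the transcription factor genes Tfe3, Tfeb and Mitf, 4 genes of lysosomal nutrient signalling, the machinery that builds autophagosomes, the selective autophagy receptor Sqstm1, lysosomal membrane and luminal proteins, and 4 subunits of the vacuolar proton pump (V-ATPase). RNA-seq was performed on 96 samples in 35 groups of C2C12 cells, a mouse myoblast line that fuses into myotubes when serum is withdrawn. The study asked how the transcriptional response to mitochondrial inhibition depends on the inhibitor, on the redox and energetic state of the cell and on differentiation. All 36 members were found in the table, and 35 passed the filter on low counts in every fit. Gpnmb, a membrane glycoprotein of lysosomes and melanosomes, did not pass it in any, with 0 to 31 estimated counts per sample.

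Autophagy encloses cell contents in a double membrane, which fuses with the lysosome so that luminal acid hydrolases can degrade them. Ubiquitin-like proteins of the ATG8 family are joined to lipid on that membrane and bind receptors such as the product of Sqstm1, known as p62, and the V-ATPase acidifies the lumen. TFE3, TFEB and MITF are related transcription factors that are held in the cytosol when nutrients are plentiful and enter the nucleus on starvation or lysosomal stress, and they recognise a palindromic element known as CLEAR in the promoters of many lysosomal genes.

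Proliferating myoblasts were stable lentiviral lines in which 300 ng/ml doxycycline induced luciferase (control cells), LbNOX, mitoLbNOX or NDI1 from a TRE3G promoter, so the control cells also carried a vector and received doxycycline. LbNOX is a bacterial water-forming NADH oxidase that acts in the cytosol, mitoLbNOX is its matrix-targeted form, and NDI1 is a yeast NADH dehydrogenase that can stand in for complex I and is not blocked by piericidin. Treatment lasted 10 hr with DMSO, 0.5 µM piericidin (a complex I inhibitor), 0.5 µM antimycin (complex III) or 1 µM oligomycin (ATP synthase) in control and LbNOX cells, without oligomycin in mitoLbNOX cells and with DMSO or piericidin alone in NDI1 cells. A separate experiment treated control and LbNOX myoblasts for 48 hr, with uridine, with DMSO or 20 µg/ml chloramphenicol, which blocks mitochondrial translation. Untransduced myotubes, 4 days in low serum, received for 10 hr DMSO, piericidin, antimycin, oligomycin, the uncoupler BAM15 at 0.5 µM, or oligomycin with piericidin or with BAM15, and DMSO or oligomycin at 5% oxygen. Cells given 5% oxygen were moved to it on the evening before the drugs were added and stayed there. Other myotubes were transduced with adenovirus for GFP alone or for LbNOX, whose virus also carried GFP, and received DMSO, piericidin or oligomycin. Cells at day 1, after 24 hr in low serum and largely post-mitotic, received the same 3 treatments without any transgene. Each group held 3 samples, except for 9 groups of 2 (the NDI1, 48 hr and GFP groups). The labels do not say whether replicates were separate cultures, so p-values measure the spread between these samples, which may be technical.

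Promoters are shown for the 6 members in which the CLEAR core TCACGTGA was found, because this element links the 3 transcription factors among the members to lysosomal genes. RefSeq promoters (GRCm38.p6, 250 bases before to 50 bases after each annotated start) matched 28 of the 36 members by gene symbol. Becn1, Atg12, Atg16l1, Map1lc3a, Npc1, Ctsb, Atp6v1h and Atp6v1b2 were not matched. The elements were searched on both strands: the E-box core CACGTG, the CLEAR core TCACGTGA, which contains it, the M-box TCATGTGA and the C/EBP-ATF element TGATGCAA. The CLEAR core was present in 6 of the 28 members (21.43%) and in 1.125% of 27025 genes, and the E-box core in 11 of 28 (39.29%) and in 8.093%. The M-box was present in 1 of 28 members, Gla, and in 1.147% of genes, and the C/EBP-ATF element in 0 of 28 and in 1.032%. Of 96 other genes of the pathway, a list described below, 77 were matched. The CLEAR core was present in 4 of these 77 (5.195%), the E-box core in 17 (22.08%), the M-box in 6 (7.792%) and the C/EBP-ATF element in 0. A match describes letters in these windows, and no binding was measured. In the windows that follow, given 5′ to 3′ in the direction of the gene, capitals mark the CLEAR core.
Ctsa (chr2:164833720-164833822, plus strand): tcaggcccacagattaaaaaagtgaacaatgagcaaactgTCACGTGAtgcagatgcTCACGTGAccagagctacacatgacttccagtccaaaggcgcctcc
Ctsd (chr7:142387879-142387966, minus strand): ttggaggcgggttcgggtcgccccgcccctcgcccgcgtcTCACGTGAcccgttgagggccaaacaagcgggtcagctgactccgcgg
Mcoln1 (chr8:3500433-3500520, plus strand): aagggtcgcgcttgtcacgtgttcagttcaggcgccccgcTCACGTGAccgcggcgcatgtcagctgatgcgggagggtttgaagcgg
Atp6v0d1 (chr8:105566021-105566108, minus strand): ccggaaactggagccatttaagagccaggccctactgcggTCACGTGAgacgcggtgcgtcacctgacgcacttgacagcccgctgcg
Atp6v1a (chr16:44139344-44139431, minus strand): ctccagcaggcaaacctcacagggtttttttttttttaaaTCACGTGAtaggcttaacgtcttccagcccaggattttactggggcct
Gla (chrX:134601153-134601255, minus strand): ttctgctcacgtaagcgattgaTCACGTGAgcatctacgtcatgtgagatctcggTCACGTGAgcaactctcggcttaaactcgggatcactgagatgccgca

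The proton pump gene Atp6v0d1 and the protective protein cathepsin A gene Ctsa held the element closest to an annotated start, 4 bases before it in Atp6v0d1 and 13 bases before and 4 bases after it in Ctsa. In Mcoln1, which encodes a lysosomal calcium channel, the element began 46 bases before the start, in the cathepsin D gene Ctsd 99 bases before and in Atp6v1a 132 bases before. Gla, which encodes α-galactosidase A, held 2 copies, 228 and 195 bases before the start. Sqstm1, Flcn, Wipi1 and Hexa held none of the 4 elements in these windows.

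Estimated counts summed to between 6458295 and 15366745 per sample, with a median of 10336588.5. Counts were normalised between samples by TMM, and levels are given as CPM, the count relative to the normalised library size, listed in the order of the replicates. Errors printed with log2 fold changes are standard errors. Proliferation markers (Mki67, Top2a, Ccnb1, Cdk1) summed to 552 to 1100.0 CPM in the 10 hr myoblast groups and to 83.5 to 128 CPM in myotubes at ambient oxygen, while the 6 myotube markers summed to 10.2 to 94.0 CPM in myoblasts and to 10200.0 CPM or more in myotubes and day 1 cells. Markers of macrophages, endothelial cells, adipocytes and melanocytes each summed to at most 3.47 CPM in any sample. Libraries also differed along a component that went with their well codes. It held 9.61% of the variance within groups and is expressed here as a library value, the mean log2 CPM of 100 genes outside the list, which ran from 3.98 to 6.34 with a median of 4.65 in the 36 libraries with outer well codes and 5.98 in the 60 with inner ones. The control myoblast DMSO libraries all had outer codes and library values of 4.13 to 5.12, against 4.95 to 6.34 with piericidin and 5.44 to 6.34 with antimycin.

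The members Lamp1, Map1lc3a and Mcoln1 followed this component within groups. The within-group correlation with the component, over all 96 libraries and given as a description, was 0.985 for Lamp1 (lysosome-associated membrane protein 1), 0.917 for Map1lc3a (the ATG8 protein LC3A) and 0.884 for Mcoln1, and between -0.616 (Atp6v1a) and 0.278 (Atp6v0d1) for the other tested members. Beside their called changes that are described, values are therefore given from a fit with the library value as a covariate, which was added after the data were seen. The labels do not say what the well codes refer to. All members were also refitted with the library value and with outer or inner wells as covariates.

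**Figure D1:**
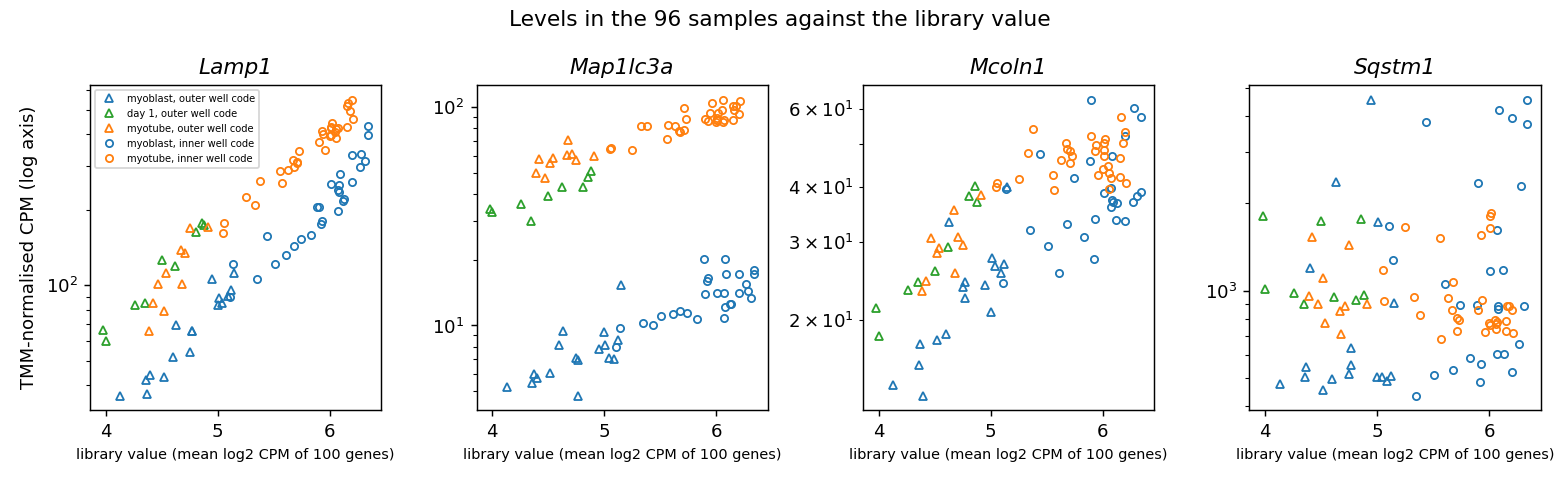
TMM-normalised CPM (log axis) of Lamp1, Map1lc3a, Mcoln1 and Sqstm1 in each of the 96 samples against the library value, with triangles for outer and circles for inner well codes and colours for myoblasts, day 1 cells and myotubes. Lamp1, Map1lc3a and Mcoln1 climb with the library value within each cell state, with correlations of 0.985, 0.917 and 0.884 within groups, and Sqstm1 does not (-0.151).

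In control myoblasts the members responded most broadly to antimycin. With a member called where the adjusted p of edgeR's quasi-likelihood test was under 0.05, 26 of the 35 tested members rose and 3 fell with antimycin, where 32.1% of the 11981 genes tested rose and 31.1% fell. With piericidin 16 of the 35 tested members rose and 4 fell, where 30.9% of the 11981 genes tested rose and 30.8% fell. With oligomycin 10 of the 35 tested members rose and 13 fell, where 24.5% of the 11981 genes tested rose and 26.3% fell. The share of members that rose was 74.3% under antimycin, 45.7% under piericidin and 28.6% under oligomycin, and the oligomycin share is near that of all genes. The share that fell was 8.57%, 11.4% and 37.1% in the same order, the last against 26.3% of all genes. Under antimycin the median log2 fold change was 0.53 over the members and -0.01 over all genes tested. The corresponding medians were 0.23 over the members and 0.00 over all genes tested under piericidin, and 0.02 over the members and -0.01 over all genes tested under oligomycin. The 3 treatments share the same DMSO samples. Without Lamp1, Map1lc3a and Mcoln1, 23 of 32 members rose and 3 fell under antimycin, 13 rose and 4 fell under piericidin, and 10 rose and 13 fell under oligomycin. Myoblast markers (Myod1, Myf5) summed to 131 to 135 CPM in DMSO, 262 to 283 CPM with antimycin, 129 to 132 CPM with piericidin and 77.3 to 88.3 CPM with oligomycin. Proliferation markers summed to 1050.0 to 1100.0 CPM in DMSO, 642 to 685 CPM with antimycin, 877 to 942 CPM with piericidin and 866 to 902 CPM with oligomycin. The 6 myotube markers summed to 17.1 to 21.3 CPM in DMSO, 81.9 to 94.0 CPM with antimycin, 26.7 to 32.4 CPM with piericidin and 22.2 to 30.6 CPM with oligomycin, and the 1 of them that was tested rose with each inhibitor. The part of these marker lists in the members' changes was not tested. In bulk RNA, fewer cells of a type and less RNA per cell cannot be told apart.

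**Figure D2:**
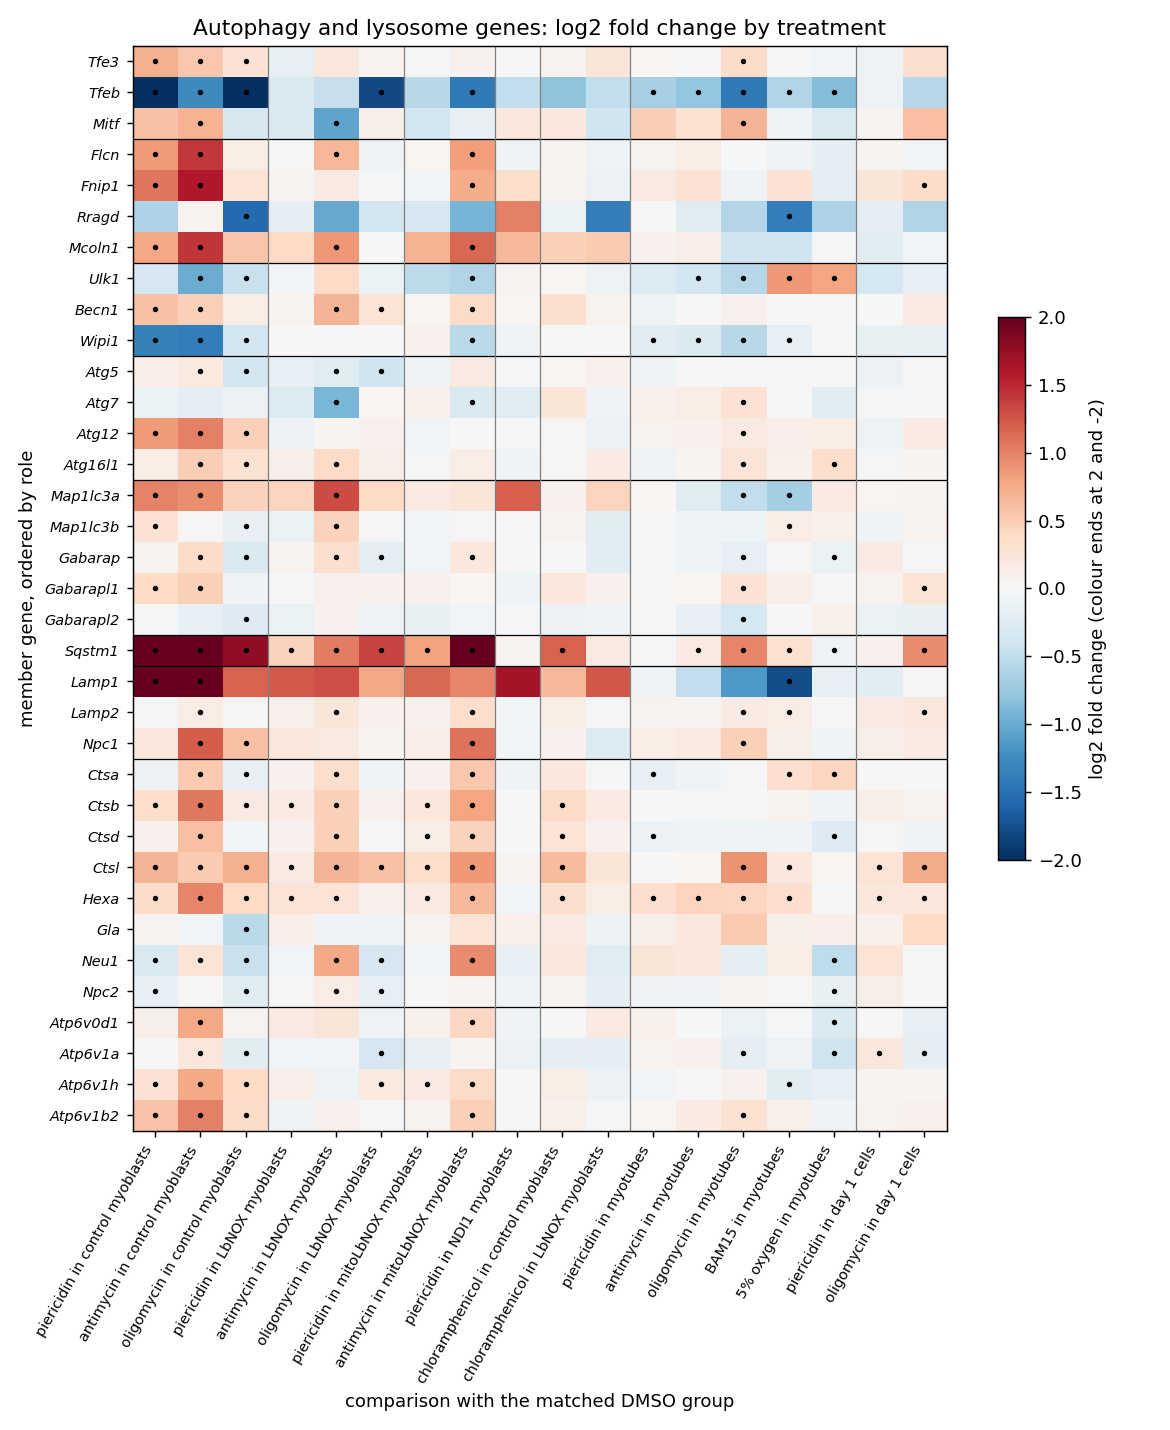
Log2 fold change of the 35 tested members (rows, ordered by role and separated by lines) in 18 comparisons of a treatment with its matched DMSO group (columns). Red is higher and blue lower, colours end at 2 and -2, and dots mark an adjusted p under 0.05. Sqstm1 is dotted in 14 of the 18 columns and the column of antimycin in control myoblasts holds 29 dots.

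Sqstm1 (chr11:50199366-50210827, minus strand), the receptor gene, had the largest rise of the 35 tested members with each inhibitor in control myoblasts. Its level was 475, 509 and 496 in DMSO, 4204, 4551 and 4529 with piericidin, 3932, 3799 and 3756 with antimycin and 1718, 1669 and 1613 with oligomycin. No treated sample overlapped the DMSO samples, and the oligomycin samples lay below those of the other inhibitors. The log2 fold change was 3.21 ± 0.034 (adjusted p = 7.45e-34) with piericidin, 2.99 ± 0.034 (adjusted p = 4.28e-33) with antimycin and 1.77 ± 0.032 (adjusted p = 9.71e-28) with oligomycin. Sqstm1 overlaps Mrnip on the other strand, and since the libraries did not mark strand their reads cannot be told apart by strand. The same holds for Mitf (Gm15531), Rragd (Gm11943), Becn1 (Cntd1), Map1lc3b (Zcchc14), Gabarapl1 (1700101I11Rik), Lamp1 (Grtp1), Npc1 (Rmc1 and Gm15956), Ctsa (Neurl2 and Pltp), Ctsb (Fdft1), Ctsl (Gm47123), Hexa (Tmem202), Atp6v1h (Rgs20) and Atp6v1b2 (Slc18a1).

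The factor genes moved in different directions. Tfe3 (chrX:7762560-7775202, plus strand) was at 39.99, 53.2 and 55.03 in DMSO, 72.5, 81.3 and 82.7 with piericidin, 71.9, 73.2 and 66.1 with antimycin and 60.3, 60.7 and 57.7 with oligomycin. All treated samples lay above the DMSO samples, with the oligomycin samples closest to them. Tfe3 rose with piericidin by 0.71 ± 0.10 (adjusted p = 1.56e-07), with antimycin by 0.54 ± 0.10 (adjusted p = 1.2e-05) and with oligomycin by 0.28 ± 0.10 (adjusted p = 0.0139) on the log2 scale. Tfeb (chr17:47737030-47792419, plus strand) was scarce, at 2.76, 2.47 and 1.83 in DMSO, 0.221, 0.434 and 0.530 with piericidin, 0.803, 1.22 and 0.801 with antimycin and 0.356, 0.0855 and 0.228 with oligomycin. Every treated sample lay below every DMSO sample. These levels rest on few reads: 20 to 35 estimated counts in the DMSO samples, 2 to 5 with piericidin, 7 to 11 with antimycin and 1 to 4 with oligomycin. Of these 4 groups only DMSO reached the 16 counts that the filter asked for in all replicates of some group, so the DMSO level alone could admit Tfeb from these cells. Tfeb fell with each inhibitor, with a log2 fold change of -2.50 ± 0.48 (adjusted p = 5.36e-05) with piericidin, -1.27 ± 0.42 (adjusted p = 0.0101) with antimycin and -3.33 ± 0.52 (adjusted p = 3.31e-06) with oligomycin. Without the count filter the antimycin change was not called and the others were. Mitf (chr6:97807052-98021349, plus strand) was at 4.14, 3.38 and 1.65 in DMSO, 4.98, 4.23 and 4.24 with piericidin, 4.62, 3.78 and 6.18 with antimycin and 2.14, 2.65 and 2.51 with oligomycin. The piericidin samples lay just above the DMSO samples, the antimycin samples overlapped them and the oligomycin samples lay within their range. Mitf passed the test with antimycin alone among these 3 (0.70 ± 0.30, adjusted p = 0.0456), and with piericidin its value was 0.59 ± 0.31 (adjusted p = 0.0941).

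Of the 4 members of nutrient signalling at the lysosome, Flcn and Fnip1 rose with antimycin and piericidin. Flcn (chr11:59791408-59810016, minus strand), which encodes folliculin, a GTPase-activating protein for Rag GTPases, was at 32.2, 36.6 and 35.01 in DMSO, 60.6, 61.7 and 59.9 with piericidin, 94.6, 90.3 and 83.8 with antimycin and 41.2, 34.9 and 37.7 with oligomycin. The samples of the 2 respiratory chain inhibitors lay above the DMSO samples, antimycin highest, and the oligomycin samples overlapped them. Flcn rose by 0.85 ± 0.10 (adjusted p = 9e-09) with piericidin and by 1.41 ± 0.10 (adjusted p = 1.38e-13) with antimycin, and its value with oligomycin was 0.15 ± 0.10 (adjusted p = 0.222). Its binding partner Fnip1 (chr11:54438199-54518235, plus strand) was at 7.63, 8.88 and 13.3 in DMSO, 18.5, 23.9 and 18.8 with piericidin, 31.4, 27.4 and 29.6 with antimycin and 12.6, 11.6 and 11.7 with oligomycin. The order of the groups was that of Flcn, with the oligomycin samples inside the DMSO range. Fnip1 rose by 1.07 ± 0.17 (adjusted p = 2.14e-06) with piericidin and by 1.60 ± 0.17 (adjusted p = 1.04e-09) with antimycin. Rragd (chr4:32983037-33022180, plus strand), a Rag GTPase gene with 17 to 43 estimated counts in the DMSO samples, was at 1.56, 3.03 and 2.01 in DMSO, 1.33, 0.977 and 1.91 with piericidin, 2.01, 2.34 and 2.52 with antimycin and 0.534, 0.598 and 1.14 with oligomycin. Only the oligomycin samples, with 6 to 10 estimated counts, lay apart from the DMSO samples. Rragd fell with oligomycin (-1.56 ± 0.51, adjusted p = 0.0117). Mcoln1 (chr8:3500457-3515232, plus strand) was at 14.2, 26.7 and 18.6 in DMSO, 37.05, 23.98 and 38.9 with piericidin, 52.1, 47.4 and 57.6 with antimycin and 27.6, 24.3 and 36.1 with oligomycin. The antimycin samples alone lay wholly above the DMSO samples. Its log2 fold change was 1.42 ± 0.28 (adjusted p = 6.07e-05) with antimycin and 0.77 ± 0.28 (adjusted p = 0.0192) with piericidin, and with the library value as a covariate 0.72 (adjusted p = 0.000144) and 0.15 (adjusted p = 0.43).

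Among genes that start an autophagosome, Wipi1 and Ulk1 fell and Becn1 rose. Wipi1 (chr11:109573331-109611967, minus strand), which encodes a reader of phosphatidylinositol 3-phosphate on the forming membrane, was at 63.98, 60.9 and 56.7 in DMSO, 19.7, 22.5 and 26.7 with piericidin, 26.9, 20.7 and 20.5 with antimycin and 46.3, 48.98 and 43.4 with oligomycin. No treated sample overlapped the DMSO samples, and the oligomycin samples lay between them and the others. Wipi1 fell by 1.36 with piericidin, by 1.38 with antimycin and by 0.37 with oligomycin on the log2 scale (adjusted p = 1.02e-14, 6.58e-15 and 0.000253). Ulk1 (chr5:110784488-110810097, minus strand), which encodes the initiating kinase, was at 6.80, 5.99 and 8.59 in DMSO, 3.65, 5.86 and 6.89 with piericidin, 3.62, 3.23 and 3.66 with antimycin and 5.88, 4.62 and 5.03 with oligomycin. The antimycin and oligomycin samples lay below all DMSO samples, and the piericidin samples overlapped them. Ulk1 fell with antimycin (-0.98 ± 0.20, adjusted p = 7.26e-05) and oligomycin (-0.44 ± 0.19, adjusted p = 0.0481), and its value with piericidin was -0.34 ± 0.19 (adjusted p = 0.116). Becn1, which encodes the lipid kinase subunit Beclin 1, rose by 0.58 with piericidin and by 0.47 with antimycin.

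Of the conjugation genes, Atg12 (chr18:46730144-46741580, minus strand), the ubiquitin-like protein joined to ATG5, changed most. It was at 49.5, 49.4 and 45.1 in DMSO, 80.2, 93.4 and 78.8 with piericidin, 103, 81.5 and 97.8 with antimycin and 70.1, 64.8 and 63.1 with oligomycin. All treated samples lay above the DMSO samples, again with oligomycin closest. Atg12 rose by 0.85 ± 0.086 (adjusted p = 6.67e-10), 1.00 ± 0.086 (adjusted p = 1.68e-11) and 0.48 ± 0.086 (adjusted p = 2.74e-05) with piericidin, antimycin and oligomycin. Atg16l1, which places the conjugate on the membrane, rose with antimycin (0.50) and oligomycin (0.30), and Atg5 rose with antimycin (0.20) and fell with oligomycin (-0.36). Atg7, the E1-like enzyme, passed the test with none of the 3 in control cells. In the ATG8 family, Gabarapl1 rose with piericidin (0.40) and antimycin (0.48), Map1lc3b rose with piericidin (0.30) and fell with oligomycin (-0.16), and Gabarap rose with antimycin (0.37) and fell with oligomycin (-0.29). Gabarapl2 fell with oligomycin (-0.25). Map1lc3a (chr2:155276297-155278073, plus strand) was at 5.24, 8.60 and 8.13 in DMSO, 17.1, 7.81 and 18.01 with piericidin, 14.2, 10.01 and 17.2 with antimycin and 8.11, 7.95 and 14.2 with oligomycin. The antimycin samples lay above the DMSO samples and the others overlapped them. Its rises of 1.00 with piericidin and 0.94 with antimycin became 0.09 (adjusted p = 0.677) and -0.07 (adjusted p = 0.744) with the library covariate.

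Among lysosomal membrane genes, Npc1 (chr18:12189692-12236400, minus strand), which exports cholesterol from the lysosome, was at 13.97, 13.1 and 12.8 in DMSO, 13.4, 16.3 and 15.7 with piericidin, 25.2, 33.7 and 31.5 with antimycin and 20.1, 21.3 and 17.5 with oligomycin. The antimycin and oligomycin samples lay above the DMSO samples, antimycin highest, and the piericidin samples overlapped them. Npc1 rose by 1.22 ± 0.15 (adjusted p = 2.57e-08) with antimycin and 0.58 ± 0.15 (adjusted p = 0.00164) with oligomycin, and its value with piericidin was 0.23 ± 0.15 (adjusted p = 0.205). Lamp2 rose with antimycin, by 0.15. Lamp1 (chr8:13159161-13175338, plus strand) was at 36.4, 96.04 and 52.01 in DMSO, 277, 106 and 399 with piericidin, 329.5, 157 and 433 with antimycin and 88.7, 89.6 and 239 with oligomycin. The piericidin and antimycin samples lay above the DMSO samples, the oligomycin samples overlapped them, and within each group the lowest and highest samples lay far apart. Its log2 fold change was 2.11 ± 0.64 (adjusted p = 0.00512) with piericidin and 2.34 ± 0.64 (adjusted p = 0.00217) with antimycin, and with the library covariate 0.40 (adjusted p = 0.000354) and 0.44 (adjusted p = 0.000153). Gpnmb was at 0.643, 0.212 and 0.0914 in DMSO, 0.774, 0.760 and 1.17 with piericidin, 2.91, 1.56 and 3.55 with antimycin and 0.802, 0.342 and 0.343 with oligomycin, and without the count filter its log2 fold change with antimycin was 3.10 ± 0.77 (adjusted p = 0.000485).

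Of the 8 luminal proteins, 6 rose with antimycin, where 32.1% of all genes tested rose and 31.1% fell. Ctsb (chr14:63122462-63145923, plus strand), the gene of the cysteine protease cathepsin B, was at 404, 407 and 392 in DMSO, 470.2, 524 and 498 with piericidin, 818, 812 and 799 with antimycin and 448, 454 and 443 with oligomycin. All treated samples lay above the DMSO samples, antimycin highest and oligomycin lowest. Ctsb rose by 1.05 ± 0.038 (adjusted p = 2.07e-20) with antimycin, 0.35 ± 0.038 (adjusted p = 2.94e-09) with piericidin and 0.18 ± 0.038 (adjusted p = 0.000254) with oligomycin. Hexa, the α subunit of β-hexosaminidase, was at 101, 95.6 and 95.98 in DMSO, 121, 121 and 126 with piericidin, 196, 192 and 169.9 with antimycin and 128, 129 and 123 with oligomycin. Its antimycin samples were the highest and none of its treated samples reached down to the DMSO range. Hexa rose by 0.97 ± 0.052 (adjusted p = 2.46e-16) with antimycin, 0.37 ± 0.052 (adjusted p = 2.88e-07) with piericidin and 0.40 ± 0.052 (adjusted p = 1.39e-07) with oligomycin. Ctsl, which encodes cathepsin L, was at 298, 276 and 277 in DMSO, 431, 453 and 442 with piericidin, 416, 389.6 and 388 with antimycin and 471, 459 and 450.0 with oligomycin. Here the antimycin samples were the lowest of the treated ones. Ctsl rose by 0.68 ± 0.041 (adjusted p = 4.71e-15) with piericidin, 0.53 ± 0.041 (adjusted p = 1.93e-12) with antimycin and 0.72 ± 0.041 (adjusted p = 2.6e-15) with oligomycin. The cathepsin D gene Ctsd rose with antimycin alone (0.60), and Ctsa rose with antimycin (0.53) and fell with oligomycin (-0.17). The sialidase gene Neu1 fell with piericidin (-0.30) and oligomycin (-0.45) and rose with antimycin (0.27). Gla fell with oligomycin (-0.54), and Npc2, which binds luminal cholesterol, fell with piericidin (-0.17) and oligomycin (-0.24).

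The 4 V-ATPase genes all rose with antimycin, where 32.1% of all genes tested rose and 31.1% fell. Atp6v1b2 (chr8:69088646-69113711, plus strand), a subunit of the catalytic head, was at 76.2, 77.8 and 77.5 in DMSO, 113, 108 and 114 with piericidin, 151, 159.9 and 144 with antimycin and 107, 103 and 87.9 with oligomycin. No treated sample overlapped the DMSO samples, and antimycin was highest. Atp6v1b2 rose by 1.01 ± 0.065 (adjusted p = 2.27e-14) with antimycin, 0.57 ± 0.065 (adjusted p = 6.63e-09) with piericidin and 0.38 ± 0.065 (adjusted p = 1.22e-05) with oligomycin. With antimycin Atp6v0d1, of the membrane sector, rose by 0.78, Atp6v1h by 0.76 and the catalytic subunit gene Atp6v1a by 0.23. Atp6v1h also rose with piericidin (0.28) and oligomycin (0.39), whereas Atp6v1a fell with oligomycin (-0.22).

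**Figure D3:**
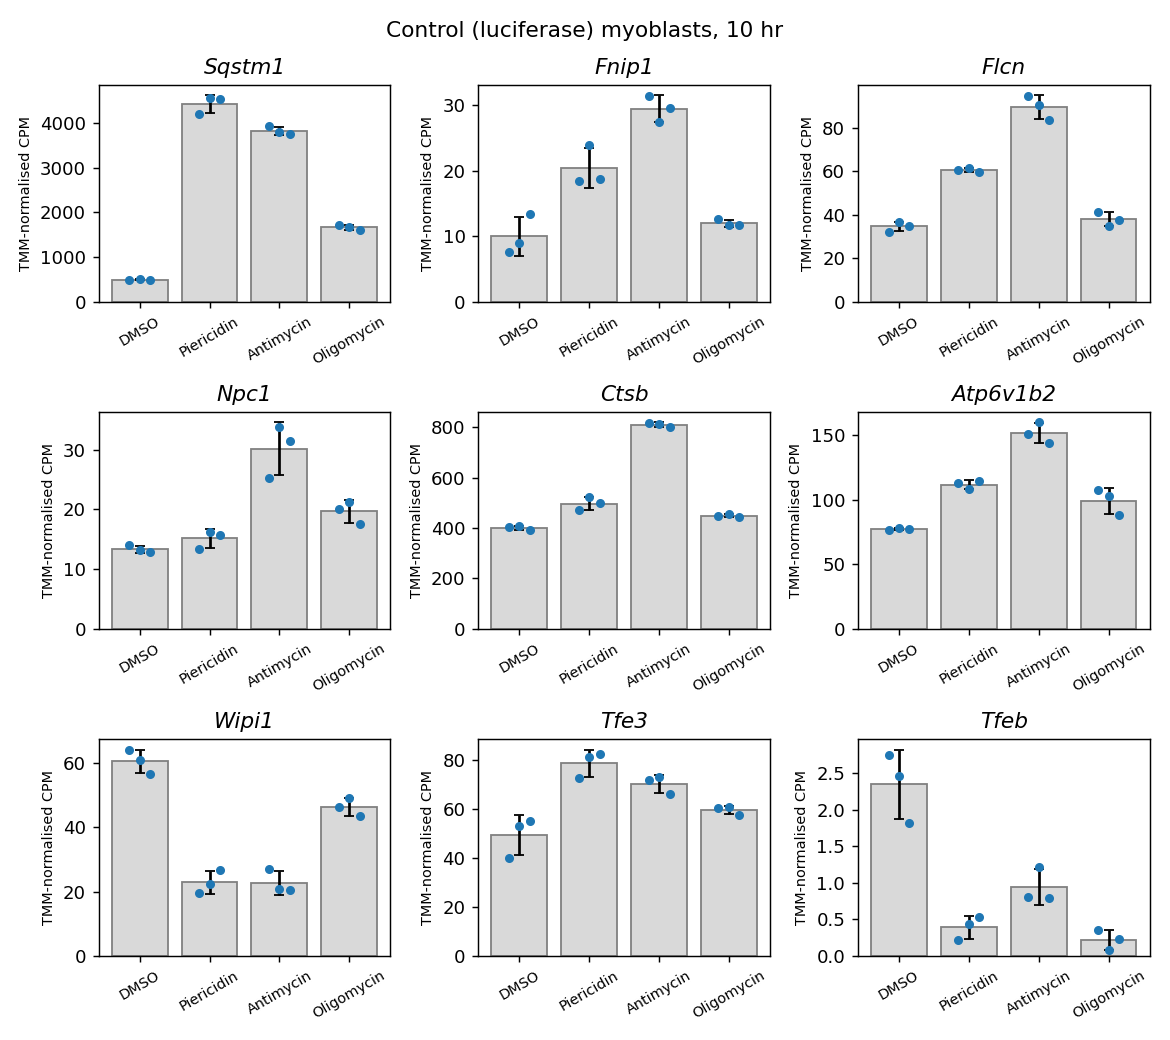
TMM-normalised CPM (linear axes from 0) of 9 members in control myoblasts after 10 hr of DMSO, piericidin, antimycin or oligomycin. Points are the 3 samples, bars their mean and error bars 1 SD. Fnip1, Flcn, Npc1, Ctsb and Atp6v1b2 are highest with antimycin, Sqstm1 with piericidin, and Wipi1 and Tfeb are highest in DMSO.

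Compared directly, antimycin gave higher levels than piericidin for 16 members and lower levels for 4, where 19.3% of all genes tested were higher and 17.9% lower. The differences ran from -0.64 (Ulk1) to 0.99 (Npc1) among those called, and included Ctsb (0.70), Atp6v0d1 (0.65), Ctsa (0.64) and Flcn (0.56). Sqstm1 was lower with antimycin than with piericidin (-0.21 ± 0.031, adjusted p = 1.8e-06). Against oligomycin, antimycin gave higher levels for 26 members and lower for 3, where 26.1% of all genes tested were higher and 23.9% lower, among them Fnip1 (1.32), Tfeb (2.05) and Rragd (1.63). The last 2 rest on few reads, with 7 to 11 estimated counts with antimycin and 1 to 4 with oligomycin for Tfeb, both under the 16 of the filter, and 20 to 22 and 6 to 10 for Rragd. Piericidin exceeded oligomycin for 17 members and fell short of it for 1, Wipi1, where 20.0% of all genes tested were higher and 19.2% lower, and leaving out a replicate number gave 11 to 14 calls. Sqstm1 differed by 1.43 ± 0.032 (adjusted p = 1.48e-24). These comparisons reuse the same treated samples.

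Other genes of the pathway, a list of 96 of which 91 were tested in the 10 hr myoblasts, changed in both directions. With antimycin 43 rose and 17 fell, with piericidin 31 rose and 27 fell, and with oligomycin 21 rose and 26 fell. Of all genes tested 32.1% rose and 31.1% fell with antimycin, 30.9% rose and 30.8% fell with piericidin, and 24.5% rose and 26.3% fell with oligomycin, so that the pathway counts for piericidin and oligomycin are near the shares of all genes. Of 8 tested further genes of nutrient signalling, 3 rose and 3 fell with antimycin, 1 rose and 2 fell with piericidin, and 1 rose and 3 fell with oligomycin. Of the 12 further V-ATPase genes, 10 rose and 0 fell with antimycin, 9 rose and 1 fell with piericidin, and 6 rose and 1 fell with oligomycin. Of 29 tested lysosomal enzyme and cofactor genes, 10 rose and 5 fell with antimycin, 4 rose and 14 fell with piericidin, and 2 rose and 12 fell with oligomycin. Of 13 lysosomal membrane genes, 9 rose and 1 fell with antimycin, 4 rose and 3 fell with piericidin, and 3 rose and 3 fell with oligomycin. Of 29 autophagy genes, 11 rose and 8 fell with antimycin, 13 rose and 7 fell with piericidin, and 9 rose and 7 fell with oligomycin. Cd68, a lysosomal membrane glycoprotein, rose with antimycin by 2.65 on the log2 scale, and Epg5, a tethering factor for autophagosomes and lysosomes, by 1.89. The heparan sulfatase gene Sgsh fell with antimycin (-1.26), and so did the kinase gene Ulk2 (-1.21). With piericidin Wipi2, related to Wipi1, rose by 2.48, or 1.53 with the library covariate, the lysosomal membrane gene Cln3 fell (-2.07) and Epg5 rose by 1.88.

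Of the 6 members with a CLEAR core, 5 rose and 0 fell with antimycin, with a median log2 fold change of 0.565, where 32.1% of all genes tested rose and 31.1% fell. With piericidin 1 of the 6 rose and 0 fell (median 0.068), where 30.9% of all genes rose and 30.8% fell, and with oligomycin 0 rose and 3 fell (median -0.112), where 24.5% rose and 26.3% fell. Of the 21 tested members with a promoter but no CLEAR core, 13 rose and 3 fell with antimycin (median 0.27), 9 rose and 4 fell with piericidin (median 0.137), and 4 rose and 10 fell with oligomycin (median -0.159). Mcoln1 is the one riser with piericidin among the 6, and its value there was 0.15 with the library covariate. Counts this small were not tested against each other.

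LbNOX, which oxidises cytosolic NADH, was next compared with luciferase under each inhibitor. In LbNOX cells 4 of the 35 tested members rose and 0 fell with piericidin, where 5.01% of the 11981 genes tested rose and 3.86% fell. With antimycin 16 of the 35 tested members rose and 3 fell, where 23.3% of the 11981 genes tested rose and 22.9% fell. With oligomycin 4 of the 35 tested members rose and 6 fell, where 17.5% of the 11981 genes tested rose and 17.7% fell. Proliferation markers in LbNOX cells summed to 1010.0 to 1040.0 CPM in DMSO, 862 to 929 CPM under piericidin, 552 to 580.0 CPM under antimycin and 762 to 852 CPM under oligomycin. Myod1 and Myf5 summed to 107 to 119, 107 to 110.0, 59.5 to 73.1 and 72.8 to 79.2 CPM in the same order, and myotube markers to 15.3 to 22.2, 30.3 to 37.3, 31.5 to 37.4 and 22.6 to 23.3 CPM. The part of this in the members' changes was not tested. The effect itself differed from that in control cells (the interaction) for 16 members under piericidin, 12 lower and 4 higher, where 22.3% of all genes tested were higher and 22.0% lower. Under antimycin it differed for 21, 16 lower and 5 higher, where 24.7% of all genes tested were higher and 26.8% lower. Under oligomycin it differed for 5, where 3.8% of all genes tested were higher and 4.18% lower. Leaving out a replicate number gave 2 to 3 calls for piericidin in LbNOX cells, 5 to 9 for oligomycin there and 1 to 3 for this last interaction. In DMSO, LbNOX cells had lower Ctsl (-0.25 ± 0.041, adjusted p = 0.000158) and Ctsb (-0.15 ± 0.038, adjusted p = 0.03) than luciferase cells, and no member was called higher, where 1.3% of all genes tested were higher and 1.38% lower. Leaving out any replicate number left the Ctsl call alone, and the adjusted p of Ctsb was then 0.192 to 0.30.

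Sqstm1 in LbNOX cells was at 455, 487 and 435 in DMSO, 606, 635 and 653 with piericidin, 907, 891 and 888 with antimycin, 1193, 1055 and 1175 with oligomycin. Each treated group lay above DMSO, but now oligomycin was highest and piericidin lowest. The piericidin effect on Sqstm1 was 0.47 ± 0.031 (adjusted p = 2.22e-12) in LbNOX cells, and the interaction was -2.74 ± 0.045 (adjusted p = 2.84e-28). The interaction was -1.97 ± 0.045 (adjusted p = 4.93e-25) under antimycin and -0.42 ± 0.044 (adjusted p = 1.14e-07) under oligomycin. Wipi1 in LbNOX cells was at 64.2, 65.1 and 58.97 in DMSO, 60.9, 61.2 and 63.97 with piericidin, 64.5, 58.8 and 57.2 with antimycin, 63.05, 57.9 and 62.3 with oligomycin. All 4 groups overlapped, where in control cells each inhibitor had lowered it. The interaction for Wipi1 was 1.35 ± 0.12 (adjusted p = 5.27e-11) under piericidin, 1.37 ± 0.12 (adjusted p = 2.57e-11) under antimycin and 0.37 ± 0.11 (adjusted p = 0.0338) under oligomycin. Atg12 in LbNOX cells was at 43.03, 44.3 and 40.9 in DMSO, 41.3, 36.4 and 40.2 with piericidin, 46.3, 41.9 and 40.2 with antimycin, 47.04, 41.1 and 43.6 with oligomycin. Its 4 groups overlapped as well. The interaction for Atg12 was -0.96 ± 0.12 (adjusted p = 1.4e-07) under piericidin and -0.95 ± 0.12 (adjusted p = 1.39e-07) under antimycin. The interaction under antimycin was also negative for Fnip1 (-1.44), Npc1 (-1.04), Atp6v1b2 (-0.93) and Hexa (-0.72).

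Atg7 and Map1lc3b passed the test under antimycin in LbNOX cells and not in control cells. Mitf fell, where in control cells it had risen with an adjusted p just under the threshold and samples that overlapped DMSO. Atg7 fell (-0.92 ± 0.12, adjusted p = 4.17e-07) and its interaction was -0.73 ± 0.17 (adjusted p = 0.000735). Mitf was at 2.56, 4.12 and 3.91 in DMSO, 1.87, 2.24 and 0.812 with antimycin in LbNOX cells and fell (-1.06 ± 0.33, adjusted p = 0.00958). The antimycin samples of Mitf lay below all DMSO samples. Mitf had few reads, with 8 estimated counts in its lowest sample of the series. Map1lc3b rose by 0.47 ± 0.051 (adjusted p = 8.68e-09). The interaction was 0.45 ± 0.072 (adjusted p = 5.98e-06) for Map1lc3b and -1.76 ± 0.45 (adjusted p = 0.00158) for Mitf. Ulk1, which antimycin lowered in control cells, was at 9.29, 8.63 and 7.81 in DMSO, 11.8, 9.56 and 11.5 with antimycin in LbNOX cells. There the antimycin samples lay above the DMSO samples, with a log2 fold change of 0.41 ± 0.17 (adjusted p = 0.0581) that did not pass the test, and the interaction was 1.39 ± 0.26 (adjusted p = 5.31e-05). Map1lc3a and Mcoln1, called higher in control cells too, rose under antimycin by 1.30 and 0.87, and with the library covariate by 0.79 (adjusted p = 7.36e-05) and 0.50 (adjusted p = 0.00263).

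In mitoLbNOX cells, 6 of the 35 tested members rose and 0 fell with piericidin, where 6.37% of the 11981 genes tested rose and 4.82% fell. With antimycin, 17 of the 35 tested members rose and 4 fell, where 24.8% of the 11981 genes tested rose and 22.9% fell. The interaction with piericidin was called for 14 members, 12 lower and 2 higher, where 21.5% of all genes tested were higher and 21.4% lower, and that with antimycin for 16, 12 lower and 4 higher, where 15.4% of all genes tested were higher and 16.3% lower. With a replicate number left out, 3 to 4 members were called with piericidin and 10 to 11 for that interaction. With antimycin proliferation markers summed to 641 to 675 CPM, against 969 to 1040.0 CPM in DMSO, and myotube markers to 59.6 to 64.3 CPM, against 14.3 to 19.8 CPM, and their part in the members' changes was not tested. Sqstm1 was at 502, 518 and 484 in DMSO, 866, 891 and 883 with piericidin, 2361, 2299 and 2346 with antimycin. Both treated groups lay above DMSO, antimycin by far the higher. The interaction for Sqstm1 was -2.40 ± 0.045 (adjusted p = 1.06e-26) under piericidin and -0.76 ± 0.044 (adjusted p = 4.23e-14) under antimycin. Flcn was at 36.6, 40.02 and 28.8 in DMSO, 37.4, 34.7 and 36.8 with piericidin, 61.4, 63.3 and 61.5 with antimycin. Only the antimycin samples stood apart from DMSO. Flcn rose with antimycin by 0.84 ± 0.10 (adjusted p = 2.21e-08), with an interaction of -0.57 ± 0.14 (adjusted p = 0.00173). Npc1 was at 11.4, 14.3 and 10.9 in DMSO, 15.2, 14.2 and 10.9 with piericidin, 24.1, 26.5 and 26.0 with antimycin. Its antimycin samples again stood above the rest. Npc1 rose with antimycin by 1.08 ± 0.15 (adjusted p = 4.58e-07), and its interaction of -0.13 ± 0.21 (adjusted p = 0.664) did not pass the test. Wipi1 was at 64.2, 61.4 and 55.04 in DMSO, 65.2, 64.2 and 63.1 with piericidin, 39.9, 39.1 and 43.9 with antimycin. It was low with antimycin alone. The interaction for Wipi1 was 1.44 ± 0.12 (adjusted p = 1.53e-11) under piericidin and 0.84 ± 0.12 (adjusted p = 1.38e-06) under antimycin, and that for Atg12 under antimycin was -0.99 ± 0.12 (adjusted p = 2.05e-07). Effects in mitoLbNOX and LbNOX cells were not tested against each other.

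In NDI1 cells, with 2 samples per group, 0 members were called with piericidin in either direction by edgeR, 2 had an unadjusted p under 0.05, the DESeq2 Wald test called 0, and 3 were called without the count filter. Among all genes 0.00835% of the 11981 genes tested rose and 0.0% fell. Sqstm1 was at 504 and 506 in DMSO and at 533 and 524 with piericidin, and Wipi1 at 66.1 and 67.6 and at 65.4 and 61.3. For Sqstm1 the piericidin samples lay slightly above the DMSO samples, and for Wipi1 slightly below. The effect of piericidin differed from that in control cells for 15 members, 13 lower and 2 higher, where 21.2% of all genes tested were higher and 21.5% lower, and 10 were called without replicate 2, which leaves 1 NDI1 sample a group, with the spread taken from the other groups. These included Sqstm1 (-3.14 ± 0.051, adjusted p = 1.77e-28), Flcn (-0.95 ± 0.16, adjusted p = 9.66e-06), Tfe3 (-0.71 ± 0.15, adjusted p = 0.000275) and Wipi1 (1.28 ± 0.13, adjusted p = 1.24e-09).

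**Figure D4:**
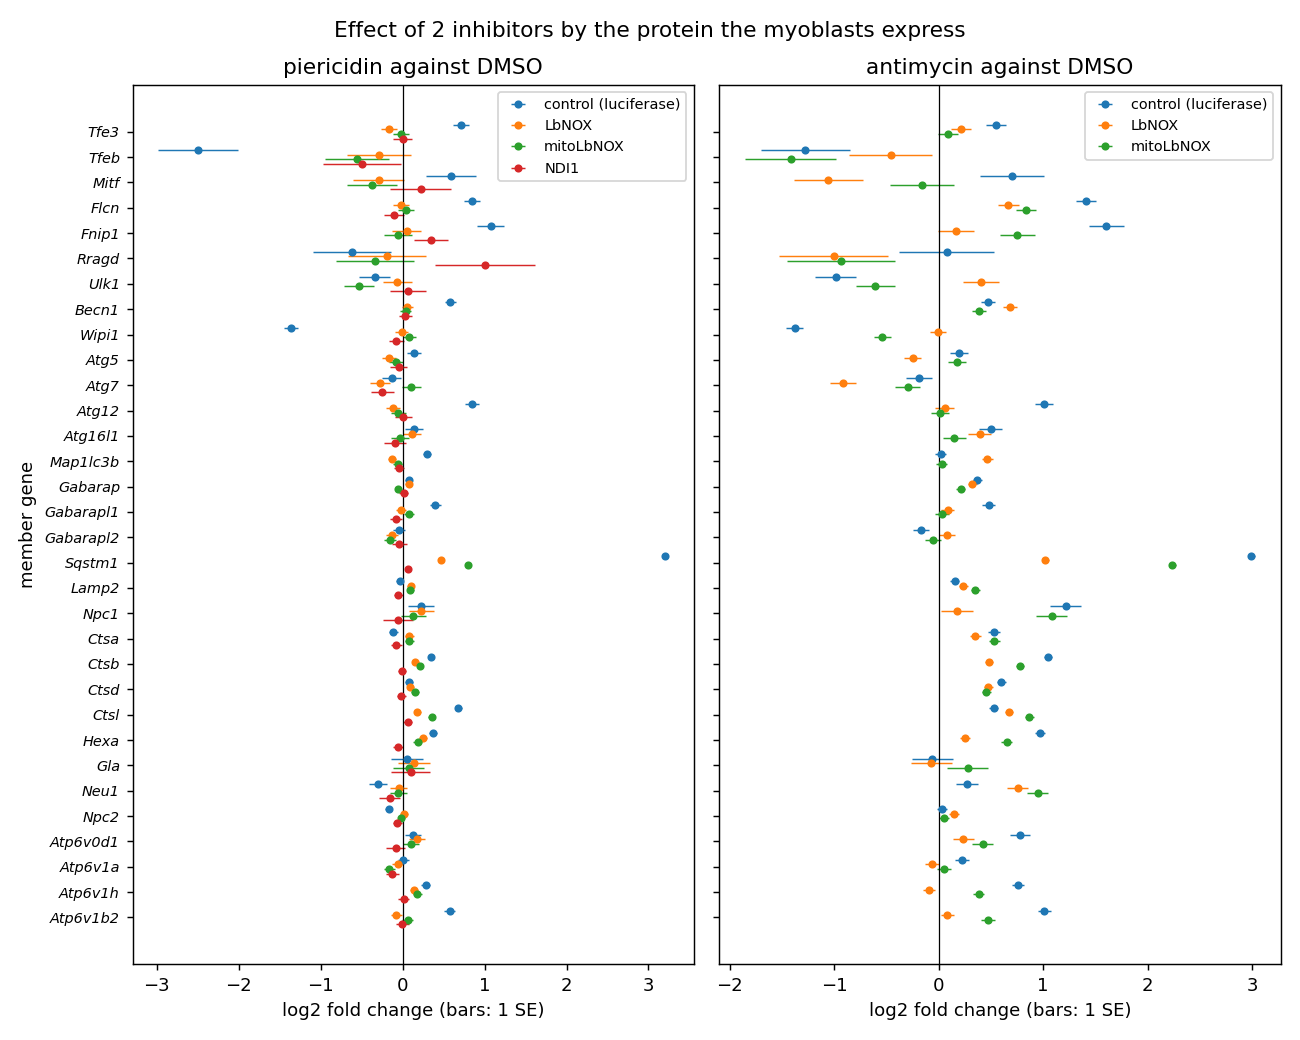
Log2 fold change against DMSO, with 1 SE, of 32 members under piericidin (left) and antimycin (right) in myoblasts expressing luciferase, LbNOX, mitoLbNOX or NDI1. Lamp1, Map1lc3a and Mcoln1 are left out because they followed the library value. Under piericidin the luciferase points for Sqstm1, Tfeb and Wipi1 stand apart from the others, and under antimycin the mitoLbNOX points of Flcn, Fnip1 and Wipi1 lie between luciferase and LbNOX.

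Chloramphenicol for 48 hr, in groups of 2, raised 5 members in control myoblasts and lowered 0, where 4.83% of the 11704 genes tested rose and 3.62% fell. There 1 of 4 proliferation markers fell, and they summed to 926 to 928 CPM against 1040.0 to 1110.0 CPM in DMSO. The part of this in the members' changes was not tested. Sqstm1 was at 558 and 556 in DMSO and 1279 and 1172 with chloramphenicol. The treated samples lay well above the control samples. Sqstm1 rose by 1.18 ± 0.050 (adjusted p = 3.16e-06), and the other 4 were all luminal enzymes, Ctsl (0.63), Ctsb (0.38), Hexa (0.32) and Ctsd (0.28). Lamp1 was 0.65 and not called, and 0.42 (adjusted p = 0.00372) with the library covariate. In LbNOX cells Sqstm1 was at 511 and 548 in DMSO and 585 and 607 with chloramphenicol. There edgeR called 0 members, 9 had an unadjusted p under 0.05 and the DESeq2 Wald test called 1, where 0.675% of all genes tested were higher and 0.256% lower. The interaction was called for Sqstm1 alone (-1.01 ± 0.071, adjusted p = 0.00261), where 0.0769% of all genes tested were higher and 0.453% lower. It was -0.99 (adjusted p = 0.0607) without the first chloramphenicol sample of LbNOX cells, and was called without any other single library. Each such fit leaves a group of 1 sample, assumed to vary like the other groups.

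Untransduced myotubes were compared with their DMSO group. With oligomycin 12 of the 35 tested members rose and 7 fell, where 16.9% of the 12491 genes tested rose and 16.4% fell, and 12 were called without replicate 1 and without replicate 2. With piericidin 1 of the 35 tested members rose and 4 fell, where 4.15% of the 12491 genes tested rose and 4.84% fell, and leaving out each replicate number gave 1 to 2 calls. With antimycin 2 of the 35 tested members rose and 3 fell, where 6.64% of the 12491 genes tested rose and 6.27% fell, and 3 were called without replicate 2. With BAM15 7 of the 35 tested members rose and 6 fell, where 13.2% of the 12491 genes tested rose and 12.2% fell, and 7 were called without replicate 2. At 5% oxygen 3 of the 35 tested members rose and 8 fell, where 12.3% of the 12491 genes tested rose and 9.78% fell. All 5 treatments share the myotube DMSO samples. The oligomycin and BAM15 libraries had library values of 4.42 to 5.56 and 4.39 to 5.06, against 6.0 to 6.07 in DMSO, and with the library covariate 5 members rose and 7 fell under oligomycin, and 5 rose and 3 fell under BAM15. With antimycin 8 were called with the covariate in place of 5, and at 5% oxygen 12 in place of 11. At 5% oxygen 4 of 4 proliferation markers fell, summing to 21 to 22.8 CPM against 103 to 128 CPM in DMSO, and the part of this in the members' changes was not tested.

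Sqstm1 in myotubes was at 795, 782 and 774 in DMSO, 726, 764 and 765 with piericidin, 898, 860.4 and 856 with antimycin, 1537, 1433 and 1519 with oligomycin, 919.8, 960.3 and 899 with BAM15 and 721, 715 and 683 at 5% oxygen. The oligomycin samples stood far above the rest, while the piericidin and 5% oxygen samples lay below the DMSO samples. Sqstm1 rose with oligomycin by 0.97 ± 0.026 (adjusted p = 3.69e-19), with BAM15 by 0.30 ± 0.026 (adjusted p = 3.03e-09) and with antimycin by 0.17 ± 0.026 (adjusted p = 4.27e-05), and fell at 5% oxygen (-0.10 ± 0.026, adjusted p = 0.00567). Ctsl was at 647, 616 and 628 in DMSO, 603, 636 and 643 with piericidin, 665, 616 and 633 with antimycin, 1195, 1106 and 1131 with oligomycin, 683, 725 and 701 with BAM15 and 655, 611 and 621 at 5% oxygen. Again the oligomycin samples stood alone at the top. Ctsl rose with oligomycin by 0.90 ± 0.036 (adjusted p = 8.38e-16), and Hexa rose with piericidin (0.34), antimycin (0.44), oligomycin (0.43) and BAM15 (0.34). Tfeb was more abundant than in myoblasts, at 9.30, 9.94 and 11.5 in DMSO, 7.77, 5.49 and 6.04 with piericidin, 5.60, 5.79 and 6.48 with antimycin, 3.29, 4.40 and 3.44 with oligomycin, 6.68, 7.05 and 5.83 with BAM15 and 5.78, 6.08 and 4.52 at 5% oxygen. Every treated sample lay below every DMSO sample. Tfeb fell with oligomycin (-1.42 ± 0.17, adjusted p = 5.42e-07), at 5% oxygen (-0.86 ± 0.17, adjusted p = 0.000397) and with antimycin (-0.77), piericidin (-0.67) and BAM15 (-0.59). Mitf rose with oligomycin, by 0.68 ± 0.23 (adjusted p = 0.0244), and Tfe3 by 0.37 ± 0.11 (adjusted p = 0.0137).

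Ulk1 was at 19.1, 17.7 and 19.5 in DMSO, 16.2, 13.2 and 16.6 with piericidin, 14.5, 15.7 and 11.97 with antimycin, 13.8, 11.2 and 12.1 with oligomycin, 35.7, 33.4 and 29.4 with BAM15 and 31.0, 31.6 and 31.4 at 5% oxygen. The BAM15 and 5% oxygen samples lay above DMSO and the other treated samples below it. Ulk1 rose with BAM15 (0.87 ± 0.12, adjusted p = 8.45e-06) and at 5% oxygen (0.79 ± 0.12, adjusted p = 2.16e-05) and fell with antimycin (-0.39 ± 0.13, adjusted p = 0.0428) and oligomycin (-0.57 ± 0.13, adjusted p = 0.00137). Wipi1 was at 164, 155 and 154 in DMSO, 133, 136 and 134 with piericidin, 128, 133 and 122 with antimycin, 113, 98.9 and 101 with oligomycin, 132, 144 and 132 with BAM15 and 152, 157 and 137 at 5% oxygen. The samples of all 4 drugs lay below DMSO, and those at 5% oxygen overlapped it. Wipi1 fell with oligomycin (-0.56 ± 0.050, adjusted p = 2.98e-09), and with piericidin (-0.21), antimycin (-0.28) and BAM15 (-0.16). Rragd, at 20 to 37 estimated counts in DMSO and 8 to 15 with BAM15, fell with BAM15 (-1.37 ± 0.39, adjusted p = 0.0119). Lamp1 was at 409, 424 and 393 in DMSO and 177, 66.1 and 102 with BAM15, and its change of -1.77 ± 0.48 (adjusted p = 0.00824) became 0.12 (adjusted p = 0.679) with the library covariate. Map1lc3a likewise went from -0.49 to -0.05 (adjusted p = 0.759) with oligomycin and from -0.68 to -0.14 (adjusted p = 0.447) with BAM15. At 5% oxygen the members that fell also included Neu1 (-0.50), Atp6v1a (-0.41), Atp6v0d1 (-0.28) and Ctsd (-0.26), and Ctsa (0.43) and Atg16l1 (0.35) rose.

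**Figure D5:**
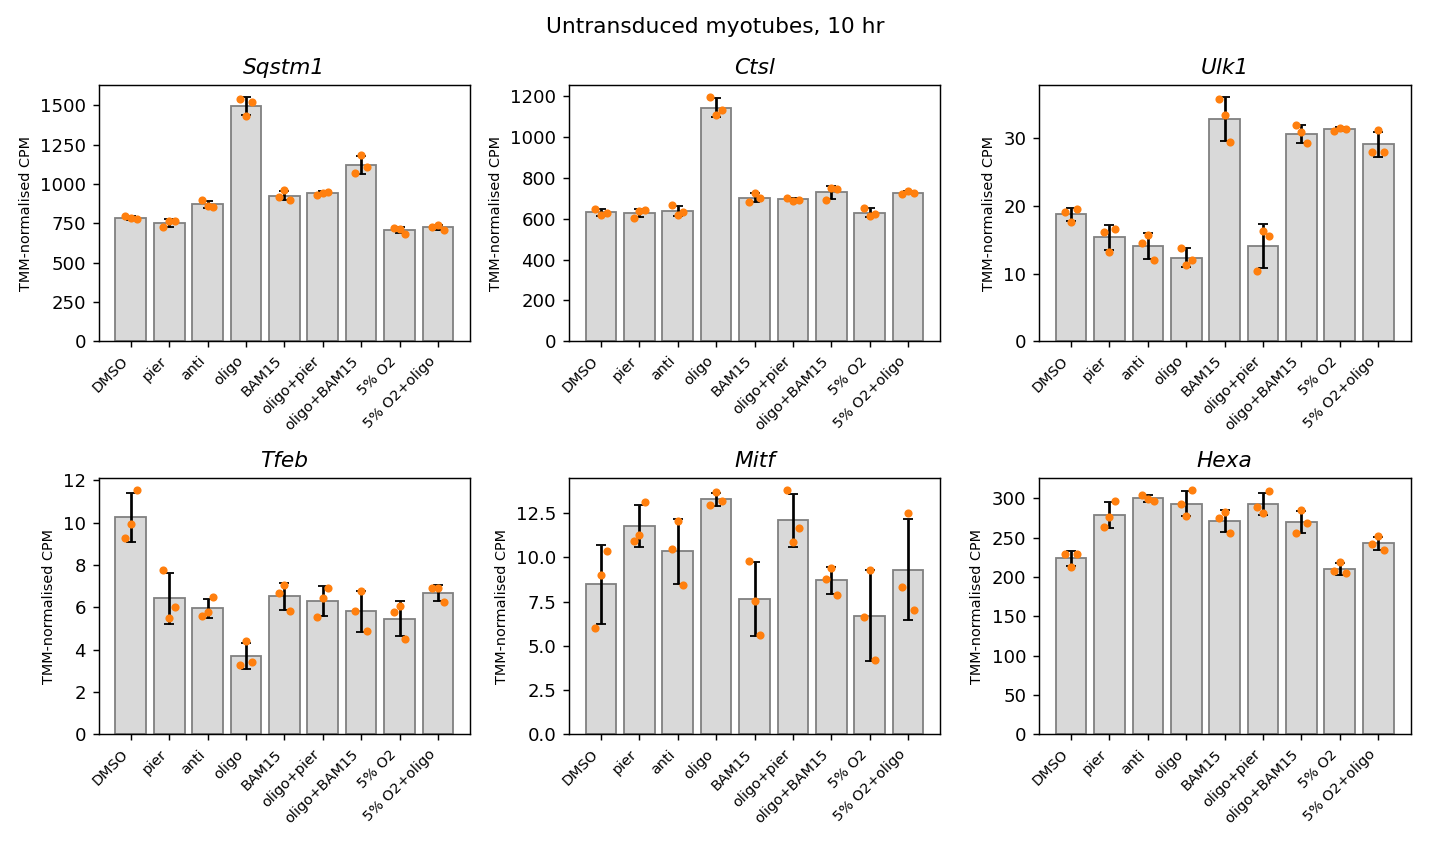
TMM-normalised CPM (linear axes from 0) of Sqstm1, Ctsl, Ulk1, Tfeb, Mitf and Hexa in untransduced myotubes after 10 hr of each drug, at ambient or 5% oxygen (pier, anti and oligo for piericidin, antimycin and oligomycin). Points are the 3 samples, bars their mean and error bars 1 SD. Sqstm1 and Ctsl are highest with oligomycin alone, and Ulk1 is highest in the 4 groups with BAM15 or 5% oxygen.

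Combined treatments were compared with oligomycin alone, whose 3 samples the 3 comparisons share. Adding piericidin, 8 of the 35 tested members rose and 4 fell, where 8.46% of the 12491 genes tested rose and 12.4% fell, and 7 were called without replicate 1 and 6 without replicate 2. Adding BAM15, 6 of the 35 tested members rose and 7 fell, where 12% of the 12491 genes tested rose and 14.1% fell, and 8 were called without replicate 1. At 5% oxygen under oligomycin, 7 of the 35 tested members rose and 11 fell, where 16.7% of the 12491 genes tested rose and 16.5% fell. There 4 of 4 proliferation markers fell, from 108 to 122 CPM with oligomycin alone to 24.0 to 25.5 CPM, and the part of this in the members' changes was not tested. Sqstm1 was at 931, 945 and 952 with oligomycin and piericidin, 1071, 1182 and 1110.0 with oligomycin and BAM15 and 725, 737 and 709 with oligomycin at 5% oxygen. All of these lay below the samples with oligomycin alone. The log2 fold change of Sqstm1 was -0.67 ± 0.026 (adjusted p = 1.58e-15) with added piericidin, -0.39 ± 0.026 (adjusted p = 1.46e-11) with BAM15 and -1.03 ± 0.026 (adjusted p = 1.01e-19) at 5% oxygen, and that of Ctsl was -0.72 ± 0.036 (adjusted p = 1.35e-13), -0.62 ± 0.036 (adjusted p = 1.17e-12) and -0.64 ± 0.036 (adjusted p = 5.71e-13). Tfeb rose in each comparison, by 0.75, 0.67 and 0.86, and Ulk1 rose with BAM15 (1.34 ± 0.12, adjusted p = 8.77e-09) and at 5% oxygen (1.25 ± 0.13, adjusted p = 2.26e-08). Mcoln1 and Map1lc3a rose on adding piericidin, by 0.57 and 0.47, which with the library covariate were 0.23 (adjusted p = 0.179) and 0.19 (adjusted p = 0.143).

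In transduced myotubes, oligomycin gave calls in both the GFP and the LbNOX groups. In GFP myotubes 10 of the 35 tested members rose and 7 fell with oligomycin, where 13.8% of the 12397 genes tested rose and 12.1% fell. Without replicate 1 or without replicate 2, which leaves 1 GFP sample a group with the spread taken from the other groups, 8 were called. In LbNOX myotubes 10 of the 35 tested members rose and 8 fell, where 16.6% of the 12397 genes tested rose and 15.4% fell, and 12 were called without replicate 3. Sqstm1 was at 889 and 889 in DMSO and 1852 and 1803 with oligomycin in GFP myotubes, and at 805, 855 and 789 and 1639, 1557 and 1657 in LbNOX myotubes. In both, all oligomycin samples lay above all DMSO samples. Sqstm1 rose by 1.03 ± 0.040 (adjusted p = 1.78e-10) and 0.99 ± 0.032 (adjusted p = 1.72e-11), and Mitf, at 8.21 and 7.40 in DMSO and 16.98 and 18.6 with oligomycin in GFP myotubes, rose by 1.17 ± 0.21 (adjusted p = 0.000886) and 0.85 ± 0.17 (adjusted p = 0.00162). Ulk1 fell by 0.86 and 1.07 and Wipi1 fell by 0.72 and 0.80 on the log2 scale. The interaction of oligomycin and LbNOX was called by edgeR for 0 members, 1 had an unadjusted p under 0.05 and the DESeq2 Wald test called 0, where 0.0% of all genes tested were higher and 0.0% lower. A p that misses the threshold does not show that the effects were equal. With piericidin, Hexa alone rose in GFP myotubes (0.42 ± 0.064, adjusted p = 0.00204), where 1.37% of the 12397 genes tested rose and 1.72% fell. That call was lost in a fit of only the groups compared. In LbNOX myotubes 3 of the 35 tested members rose and 2 fell, where 3.24% of the 12397 genes tested rose and 3.54% fell, with the widest changes in Ulk1 (-0.77) and Hexa (0.40), and 2 were called without replicate 2 or without replicate 3.

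In day 1 cells, 3 of the 35 tested members rose and 0 fell with piericidin, where 1.39% of the 11827 genes tested rose and 1.36% fell, and these calls, Ctsl (0.27), Atp6v1a (0.23) and Hexa (0.22), were lost on leaving out any replicate number. With oligomycin 6 of the 35 tested members rose and 1 fell, where 10.6% of the 11827 genes tested rose and 10.1% fell, and leaving out a replicate number gave 2 to 4 calls. There 2 of 4 proliferation markers fell, summing to 150.0 to 162 CPM against 180.0 to 202 CPM in DMSO, and the part of this in the members' changes was not tested. Lamp1 was 0.02 there and 0.20 (adjusted p = 0.0227) with the library covariate. Sqstm1 was at 898, 926 and 950.1 in DMSO, 1012, 964 and 984 with piericidin and 1736, 1763 and 1811 with oligomycin. The oligomycin samples lay far above the others, and the piericidin samples just above DMSO. Sqstm1 rose with oligomycin by 0.94 ± 0.035 (adjusted p = 6.66e-09) and Ctsl by 0.75 ± 0.048 (adjusted p = 6.9e-07), and the piericidin value for Sqstm1 was 0.09 ± 0.035 (adjusted p = 0.217).

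Across differentiation in DMSO, most members were higher after serum withdrawal. Between day 1 cells and control myoblasts 26 of the 35 tested members rose and 2 fell, where 31.3% of the 12766 genes tested rose and 32.3% fell, and the median log2 fold change was 0.67 over the members and 0.00 over all genes tested. Between myotubes and control myoblasts 26 of the 35 tested members rose and 3 fell, where 35.7% of the 12766 genes tested rose and 33.7% fell, with a median of 0.73 over the members and 0.04 over all genes tested. From day 1 cells to myotubes 11 of the 35 tested members rose and 9 fell, where 19.6% of the 12766 genes tested rose and 16% fell, and 8 were higher and 8 lower with the library covariate. Lamp1 and Map1lc3a were there called at 1.75 and 1.22, and were -0.28 (adjusted p = 0.107) and 0.35 (adjusted p = 0.0856) with it. The control myoblasts carried luciferase and received doxycycline and the others did not, which cannot be told apart from cell state. All day 1 libraries had outer well codes and low library values (4.35 to 4.81 in DMSO). Map1lc3a was at 5.24, 8.60 and 8.13 in myoblasts, 30.2, 43.2 and 43.05 in day 1 cells and 96.9, 87.7 and 85.1 in myotubes. The 3 states did not overlap. The myotube to myoblast difference for Map1lc3a was 3.60 ± 0.26 (adjusted p = 3.79e-13), and 2.77 (adjusted p = 1.92e-15) with the library covariate. Tfeb was at 1.96, 1.74 and 2.23 in day 1 cells and 9.30, 9.94 and 11.5 in myotubes, and Tfe3 at 28.99, 31.3 and 31.5 and 27.9, 28.9 and 24.8. Tfeb was thus high in myotubes alone, and Tfe3 was highest in myoblasts. In myotubes against myoblasts Tfeb rose by 2.12 ± 0.28 (adjusted p = 9.1e-08), Mitf by 1.47 ± 0.25 (adjusted p = 6.54e-06) and Ctsd by 1.79 ± 0.043 (adjusted p = 2.1e-24), while Tfe3 (-0.86 ± 0.12, adjusted p = 3.61e-07) and Gla (-0.95 ± 0.28, adjusted p = 0.00349) fell. Lamp1 differed between myotubes and myoblasts by 2.72, or 0.81 (adjusted p = 1.55e-06) with the covariate, and Mcoln1 by 1.11, or 0.25 (adjusted p = 0.148).

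The effect of an inhibitor differed between myotubes and control myoblasts for 18 members under piericidin (15 lower in myotubes, 3 higher), where 25.2% of all genes tested were higher and 21.3% lower, and 11 were called without replicate 1. Under antimycin it differed for 24 (21 lower, 3 higher), where 25.4% of all genes tested were higher and 22.5% lower, and under oligomycin for 14 (6 lower, 8 higher), where 15.8% of all genes tested were higher and 13.2% lower. For Sqstm1 the interaction was -3.20 ± 0.042 (adjusted p = 1.32e-29) under piericidin, -2.77 ± 0.042 (adjusted p = 5.73e-28) under antimycin and -0.80 ± 0.041 (adjusted p = 1.03e-14) under oligomycin. Under antimycin, with Lamp1, Map1lc3a and Mcoln1 set aside, Fnip1 (-1.26), Flcn (-1.22), Ctsb (-1.03) and Atg12 (-0.88) followed, and Wipi1 went the other way (1.14). Under oligomycin, Tfeb (1.91 ± 0.51, adjusted p = 0.00561), and Gla (1.07) were among those higher in myotubes. For Tfeb, control myoblasts held 20 to 35 estimated counts in DMSO and 1 to 4, under the 16 of the filter, with oligomycin. With the library covariate 2 members were called higher and 4 lower under oligomycin, and 4 to 8 members were called there when a replicate number was left out. Lamp1 and Map1lc3a were called under piericidin and antimycin without the library covariate, and with it Lamp1 was -0.26 (adjusted p = 0.178) and -0.13 (adjusted p = 0.608), and Map1lc3a -0.10 (adjusted p = 0.729) and 0.02 (adjusted p = 0.963). Under oligomycin Lamp1 and Mcoln1 were called at -2.32 and -0.95, and were 0.30 (adjusted p = 0.248) and 0.20 (adjusted p = 0.575) with it. Under antimycin Mcoln1 was called at -1.25 and was -0.08 (adjusted p = 0.813) with it.

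Over all 20 comparisons of piericidin, antimycin, oligomycin or chloramphenicol with the matched DMSO group, some of which share controls, Hexa rose in 17, Sqstm1 in 14 and Ctsl in 14, and none of these fell in any. Per comparison, 0.00835% to 32.1% of all genes tested rose and 0.0% to 31.1% fell. How often other genes recurred was not counted. Ctsb, Lamp2 and Atp6v1h each rose in 8, Atp6v1b2 in 7, and Tfe3 and Npc1 in 6. Tfeb and Wipi1 fell in 10 and Ulk1 in 8, and these rose in 0 of the 20. The Tfeb falls in control myoblasts rest on 1 to 11 estimated counts per treated sample, against 20 to 35 in DMSO. Of the groups compared there, only DMSO reached the minimum of the count filter, so a high control level could admit Tfeb. Without that filter the Tfeb fall with antimycin in control myoblasts was not called. Gabarap rose in 3 and fell in 5, and Neu1 rose in 4 and fell in 3.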

How the data were processed

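RNA was measured in 96 polyA Smart-seq2 libraries, which do not mark strand, sequenced as paired reads. The authors converted reads with bcl2fastq 2.20.0.422, quantified them with kallisto 0.44 against Ensembl release 93 mouse transcripts and the transgene sequences, and deposited estimated counts per gene, summed over 2 flow cells, as whole numbers without normalisation. Counts of near-identical copies and of overlapping genes can be split by such estimates.

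Samples were grouped by the labels, and none was left out. The members and all gene lists were chosen with earlier results of these data known. A gene was tested where all replicates of some group in the fit reached 16 counts, with edgeR 4.0.16 (R 4.3.3), using TMM factors, the quasi-likelihood F test and Benjamini-Hochberg adjustment within each comparison over all genes tested, with a threshold of 0.05. There were 6 fits (10 hr myoblasts, chloramphenicol, untransduced myotubes, transduced myotubes, day 1 cells, cell states) and 43 comparisons. Scripts were tested on simulated data. Of 87 pairs of replicates 0 held identical counts. Intervals are standard errors and cover the spread between samples only.

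Values of every sample were given for members with an absolute log2 fold change of at least 1 and an adjusted p under 0.05 in at least 1 of 20 comparisons of piericidin, antimycin, oligomycin or chloramphenicol with DMSO, and for Tfe3, Tfeb and Mitf. Values of every sample for Hexa, Ctsl and Gpnmb were added after they were seen. Other members were given by counts and examples, and other pathway genes by the largest changes. Same-numbered replicates were not paired by the labels, and their mean correlation of deviations from group means was 0.0337 in the 10 hr myoblasts, so no block was used. Alternatives were no count filter, DESeq2 size factors, the DESeq2 1.42.0 Wald test, fits of the compared groups alone, a replicate block, outer or inner well as a covariate, leaving out each replicate number (each library in the chloramphenicol experiment) and, added after the data were seen, the library value as a covariate. Gene positions are from GENCODE M21 (GRCm38) and promoters from RefSeq.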

Additional observations from a re-analysis of the deposited data

Results flagged for a closer look

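Effects of an inhibitor that differed between 2 lines or 2 cell states, by the edgeR test of the difference itself, are listed here with the number of the 35 tested members called, the share of all genes tested that was called higher and lower and, Lamp1, Map1lc3a and Mcoln1 aside, the called member with the largest difference. Between LbNOX and luciferase myoblasts the effect differed for 16 members under piericidin (12 lower and 4 higher), with Sqstm1 at a log2 difference of -2.74. There the total share alone is near that of all genes (22.3% higher and 22% lower). The effect differed for 21 under antimycin (24.7% and 26.8% of all genes), with Sqstm1 at -1.97, and for 5 under oligomycin (3.8% and 4.18%), with Atp6v1b2 at -0.43. Between mitoLbNOX and luciferase myoblasts the effect differed for 14 under piericidin (12 lower and 2 higher), with Sqstm1 at -2.405. There the total share alone is near that of all genes (21.5% and 21.4%). Under antimycin the effect differed for 16 (15.4% and 16.3% of all genes), with Atg12 at -0.99. Between NDI1 and luciferase myoblasts the effect differed for 15 under piericidin (13 lower and 2 higher), with Sqstm1 at -3.14. Here too the total share alone is near that of all genes (21.2% and 21.5%). Under chloramphenicol the difference between LbNOX and luciferase cells was called for 1 member, Sqstm1 at -1.01 (0.0769% and 0.453% of all genes).

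Between myotubes and control myoblasts the effect differed for 18 members under piericidin (15 lower and 3 higher), with Sqstm1 at -3.20. There the total share alone is near that of all genes (25.2% higher and 21.3% lower). The effect differed for 24 under antimycin (25.4% and 22.5%), with Sqstm1 at -2.77, and for 14 under oligomycin (15.8% and 13.2%), with Tfeb at 1.91. That Tfeb value rests on 1 to 4 estimated counts with oligomycin in control myoblasts. Cell state cannot be told apart here from the luciferase vector and doxycycline, which the myoblasts alone carried and received. Lamp1, Map1lc3a and Mcoln1 enter some of these counts, and with the library covariate 2 members were higher and 4 lower under oligomycin.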

How the results depend on the processing

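Of the 574 calls of single members, 562 kept their direction and side of the threshold with the replicate block, 564 with DESeq2 size factors, 555 with the DESeq2 Wald test, 515 with the library covariate and 474 without a count filter. With only the groups compared 521 of 573 did, and with the well covariate 517 of the 564 that could be fitted. With the replicate block piericidin in myotubes gave 3 calls in place of 5, and same-numbered samples did not deviate together, so the numbers were not treated as paired. Without a count filter there were 3 calls for piericidin in NDI1 myoblasts, 4 for chloramphenicol in LbNOX cells, 3 for its interaction, 1 for piericidin in myotubes, 1 for oligomycin by LbNOX in myotubes and 6 for oligomycin by myotube state. LbNOX against luciferase in DMSO gave 1 call with DESeq2 size factors and 1 with only the groups compared. The Wald test gave 1 for chloramphenicol in LbNOX cells, 2 for its interaction and 2 for piericidin in GFP myotubes, where only the groups compared gave 0. The well covariate gave 9 for oligomycin by myotube state and could not be fitted to day 1 cells, all of outer wells. The library covariate gave 8 for antimycin, 12 for oligomycin and 8 for BAM15 in myotubes, 2 for piericidin in GFP and 3 in LbNOX myotubes, and 6 for oligomycin by myotube state. It turned 6 directions: Map1lc3a under antimycin in control myoblasts (-0.073), Lamp1 under BAM15 (0.12) and in myotubes against day 1 cells (-0.28), Map1lc3a for antimycin by state (0.021), and Mcoln1 (0.20) and Lamp1 (0.30) for oligomycin by state. The cause of the other changes was not tested.

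Leaving out each replicate number gave, in myoblasts, 11 to 14 calls for piericidin against oligomycin, 2 to 3 for piericidin and 5 to 9 for oligomycin in LbNOX cells, 3 to 4 for piericidin in mitoLbNOX cells, 1 to 3 for oligomycin by LbNOX, 10 to 11 for piericidin and 11 to 15 for antimycin by mitoLbNOX, 10 to 15 for piericidin by NDI1, 1 to 1 for LbNOX against luciferase and, leaving out single libraries, 0 to 1 for chloramphenicol by LbNOX. In myotubes it gave 1 to 2 for piericidin, 3 to 5 for antimycin, 12 to 18 for oligomycin, 7 to 11 for BAM15, 6 to 12 for added piericidin, 8 to 12 for added BAM15, 8 to 16 for oligomycin with GFP, and 2 to 5 for piericidin and 12 to 14 for oligomycin with LbNOX. In day 1 cells it gave 0 to 0 for piericidin and 2 to 4 for oligomycin, and by state 11 to 19 for piericidin and 4 to 8 for oligomycin. Members with few counts, such as Tfeb and Rragd in myoblasts, rest on few reads per sample.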

Other observations

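Gpnmb was left out of the tests by the count filter. Without that filter its log2 fold change in antimycin against oligomycin in control myoblasts was 2.43 ± 0.74 (SE, edgeR adjusted p = 0.00931), and with antimycin it was 1.68 ± 0.75 in mitoLbNOX and 1.13 ± 0.98 in LbNOX myoblasts (SE, edgeR adjusted p = 0.16 and 0.719).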
